A study of Mus musculus with 8 samples.

Results

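The COPI and COPII coats and the receptors that load them were described in macrophages from wounded mouse skin, sampled on day 1 and on day 3 after wounding. The set holds 31 named genes of the 55414 in the deposited count table, found by gene symbol, and all 31 passed the filter on low counts. It comprises 11 genes of COPII and its SAR1 GTPases, 10 of COPI and its ARF GTPases, and 10 cargo receptors, retrieval receptors and a SNARE. The RNA came from cells of wound-bed skin that were selected on magnetic beads carrying an antibody to F4/80, a surface marker of macrophages (gene Adgre1). There were 3 libraries at day 1 (a to c) and 5 at day 3 (a to e), each from a pool of 6 wounds of 3 mice, and the protocols state 6 samples per time point. Strain, genotype and age of the mice are not given in the sources used here, and no unwounded group was analysed here. Whether pools shared mice is also not given, so p-values measure the spread between these pools, which may be technical.

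Proteins made on the endoplasmic reticulum (ER) leave it in vesicles coated by COPII. The GTPase SAR1 recruits an inner SEC23-SEC24 layer, in which SEC24 binds the cargo, and an outer SEC13-SEC31 cage. COPI carries escaped ER proteins and Golgi enzymes backwards: the GTPase ARF1 recruits the heptameric coatomer, and KDEL receptors and p24 proteins of the TMED family supply it with cargo. Macrophages depend on this traffic to secrete cytokines and to place receptors and lysosomal enzymes.

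The libraries held 41566151 to 60289310 counts each. At that depth the limit of detection, set at 3 counts, was worth 0.0498 to 0.0722 CPM (counts scaled to the library total), for counting error only. Genes with any count numbered 23928 to 27315 in the day 1 libraries and 14952 to 20557 in those of day 3. These ranges did not overlap, so this difference between libraries cannot be told apart from the day. Its part in the fold changes was not tested. The macrophage markers summed to between 16683 and 19676 normalised CPM at day 1 and between 28068 and 35580 at day 3, and all 10 were detected. The inflammatory monocyte markers ran the other way, from 6184 to 7968 and from 3288 to 4006. Single genes made up much of these sums: Lyz2 lay at 6717 to 9897 at day 1 and 15661 to 23432 at day 3, and Thbs1 at 3368 to 4311 and 1453 to 2649. The macrophage marker Fcgr1 ran against its list, with 717 to 979 and 344 to 488, and the monocyte marker Ccr2 overlapped between the days, with 907 to 1563 and 801 to 1605. The neutrophil markers reached 3722 in day 1 c and 3390 in day 3 b and lay between 271 and 2039 elsewhere, and the fibroblast markers lay between 276 and 625. Fn1 made up most of the fibroblast sum, at 203 to 541. The collagen genes of that list were higher at day 3 without overlap. Col1a1 lay at 3.06 to 3.64 and 14.6 to 25.2, Col1a2 at 1.49 to 5.12 and 10.6 to 29.5, and Col3a1 at 1.61 to 6.33 and 17.2 to 46.4. Fn1, Dcn, Lum, Pdgfra and Pdgfrb overlapped between the days. Endothelial markers summed to at most 76.1, and B and plasma cell markers to at most 213. Of 4 mast cell markers, Mcpt4 and Tpsb2 were at 0 in every library and Cpa3 was at most 0.801, while Kit was 10.9 in day 1 a, 5.17 in day 1 c and at most 3.90 elsewhere. Their part in the levels below was not tested, and in bulk RNA fewer cells of a type and less RNA per cell cannot be told apart. Library day 1 c stood apart among the members: it had the highest value of all 8 libraries in 15 of the 31 genes (48.4%), against 18.7% of all genes tested. Day 1 a was highest in 9 members (29.0%) and in 23.2% of all genes tested. Over all genes tested, day 1 a was also the lowest library in 24.2%, against 14.3% for day 1 c. The group summaries and the fold change of every member are also given without day 1 c.

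None of the 31 genes passed the edgeR quasi-likelihood test between the days at a Benjamini-Hochberg adjusted p under 0.05. In that test 2 of 15371 genes passed (0.013%). At an unadjusted p under 0.05, 6 members were lower at day 3 and 0 were higher, against 10.5% and 5.16% of all genes tested. The 6 were Sec23b of COPII, Copb2, Copg1, Copz1 and Arf1 of COPI, and the p24 protein gene Tmed7. DESeq2 called 1 member, Arf1, as lower (background 4.22% lower), limma voom called 0 (background 4.4% lower), and edgeR after a stricter filter on low counts called 0 of the 30 members that passed it (background 1.79%). Across the 31 genes the median log2 fold change, day 3 minus day 1, was -0.21, with 26 below 0 and 5 above. The median over all genes tested was -0.17, with 8782 below 0 and 6589 above. The stricter filter left 8142 genes with a median of -0.03 and 30 members with a median of -0.17. Values of 5 members did not overlap between the days, all of them lower at day 3, where 8.76% of all genes tested were lower and 5.31% higher without overlap.

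**Figure D1:**
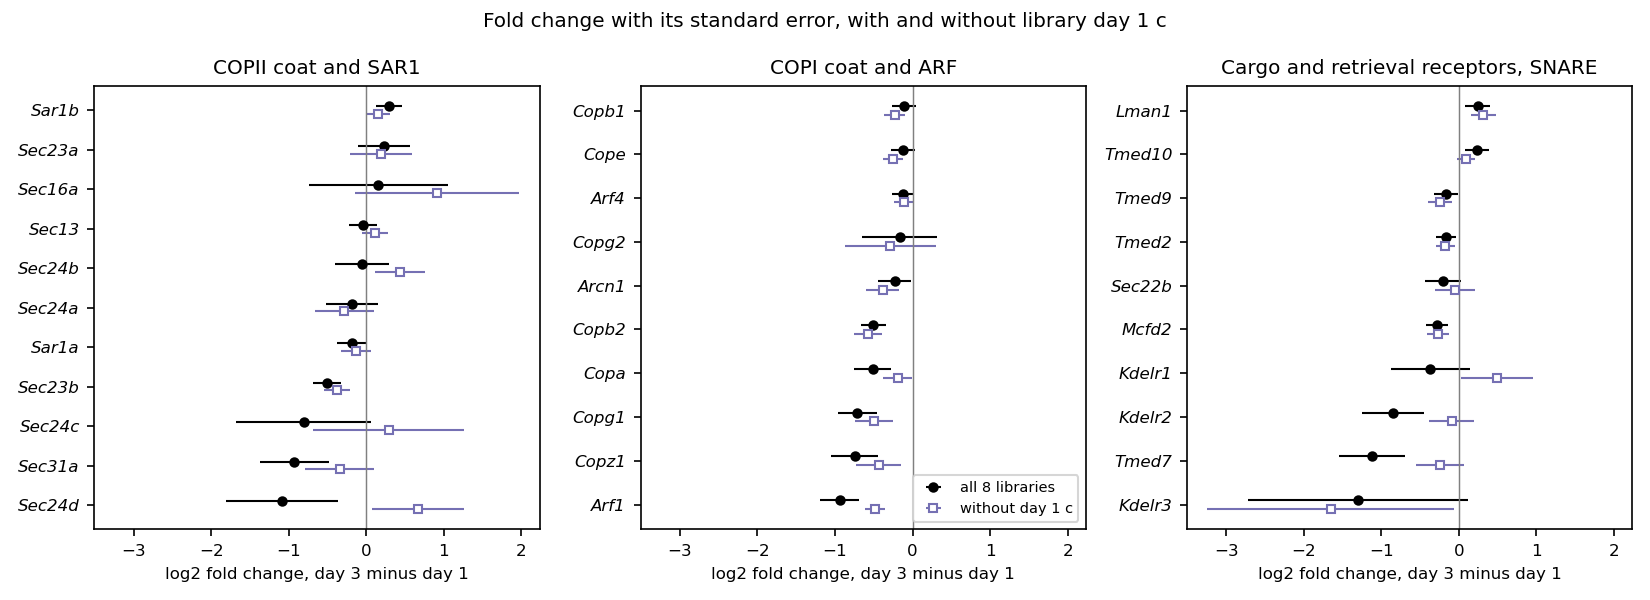
Fitted log2 fold change of each gene (horizontal axis, day 3 minus day 1, log2 units) with its standard error, in 3 panels by role; filled circles use all 8 libraries and open squares leave out day 1 c. All 10 COPI genes lie below 0 in both fits, whereas 4 of the 11 COPII genes change side when day 1 c is left out.

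Sequences before the transcription start of these genes are shown because the unfolded protein response and the CREB3 family are known to act on coat genes through short elements there. RefSeq windows of 250 bases before the start (GRCm38.p6, an earlier build than that of the counts) were matched for 26 of the 31 genes. The element TGACGTGG, read on both strands, was found in 4 of the 26 (15.4%): Sec24d, Arf1, Copb1 and Kdelr3. It was found in 163 of 27025 genes with such a window (0.603%). The capitals mark the element, which on the opposite strand reads CCACGTCA and so contains the shorter element CCACG. The windows are chr3:123267246-123267495 on the plus strand for Sec24d, chr11:59228163-59228412 on the minus strand for Arf1, chr7:114254681-114254930 on the minus strand for Copb1 and chr15:79516158-79516407 on the plus strand for Kdelr3.
Sec24d: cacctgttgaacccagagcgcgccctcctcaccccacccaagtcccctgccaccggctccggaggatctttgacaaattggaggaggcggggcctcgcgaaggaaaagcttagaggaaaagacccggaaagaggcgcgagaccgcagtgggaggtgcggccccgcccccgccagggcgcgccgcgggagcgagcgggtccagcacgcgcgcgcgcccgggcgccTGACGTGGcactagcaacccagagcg
Arf1: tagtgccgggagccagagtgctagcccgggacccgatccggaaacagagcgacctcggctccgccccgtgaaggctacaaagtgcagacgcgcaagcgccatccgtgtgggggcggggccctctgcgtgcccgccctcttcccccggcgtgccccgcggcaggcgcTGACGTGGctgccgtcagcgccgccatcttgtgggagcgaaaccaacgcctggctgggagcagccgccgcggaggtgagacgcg
Copb1: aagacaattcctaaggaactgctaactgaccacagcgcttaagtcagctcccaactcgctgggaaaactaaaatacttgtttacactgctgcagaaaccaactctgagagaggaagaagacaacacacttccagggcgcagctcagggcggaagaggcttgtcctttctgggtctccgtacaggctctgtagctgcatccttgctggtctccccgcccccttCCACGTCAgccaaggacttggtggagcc
Kdelr3: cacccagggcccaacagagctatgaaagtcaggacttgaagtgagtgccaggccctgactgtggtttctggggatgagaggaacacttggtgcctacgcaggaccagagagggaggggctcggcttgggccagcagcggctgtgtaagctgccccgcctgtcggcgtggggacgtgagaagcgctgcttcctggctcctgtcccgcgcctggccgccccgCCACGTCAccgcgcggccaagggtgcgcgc
The element began 26 bases before the start in Sec24d, 84 in Arf1, 28 in Copb1 and 30 in Kdelr3. The shorter element CCACG was in 16 of the 26 genes (61.5%) and in 31% of all genes with a window. A gene with several start sites counted if any of its windows held the element. The cyclic AMP response element TGACGTCA was in 1 (3.85%), Cope, and in 1.77% of all. The longer elements ERSE and ERSE-II were in none of the 26, and in 0.13% and 0.037% of all. A match describes the letters in the window and is not evidence of binding.

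COPI had the lower median fold change of the 2 coats over all libraries, an order that turned without day 1 a (-0.28 for COPI and -0.36 for COPII). Its median log2 fold change was -0.37 (-0.34 after the stricter filter), with 10 of 10 below 0 and a range from -0.94 to -0.11. Of the 10, 4 were lower at an unadjusted p under 0.05, against 10.5% of all genes tested, and 2 without day 1 c, against 10.7%. In 3 (Copb2, Copg1 and Arf1) the day ranges did not overlap, against 8.76% of all genes lower in that way, and in 5 without day 1 c, against 16.6%. Cope turned to 0.08 with GC offsets, Arcn1 was above 0 without day 1 a, and Copg2 was so without day 3 b, without day 3 d or in the 6 libraries lettered a to c.

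Arf1 (chromosome 11, positions 59102238 to 59119096 on the minus strand, GRCm39), the GTPase that starts coatomer assembly on Golgi membranes, had the lowest fold change of the COPI genes. Its normalised CPM was 354, 334 and 728 in day 1 a, b and c, and 225, 263, 237, 232 and 274 in day 3 a to e. Every day 1 library was above every day 3 library, and day 1 c was the highest by a wide margin. Day means of 472 ± 222 and 246 ± 21.1 (SD, n = 3 and 5) gave -0.94 ± 0.25 on the log2 scale (± standard error), with an adjusted p of 0.0933 by edgeR and 0.0149 by DESeq2. Without day 1 c the log2 fold change was -0.49 ± 0.13, with an edgeR adjusted p of 0.125 and values that still did not overlap. After the stricter filter the edgeR adjusted p was 0.0796, and it was 0.0477 when day 1 b was left out as well (background 2.74% lower). Over its 20 alternatives the adjusted p from edgeR, DESeq2 or voom ran from 0.00211 to 0.52. Arf4, a related GTPase of the early secretory pathway, had 419, 334 and 391 normalised CPM at day 1 and 329, 339.8, 362, 366 and 347 at day 3. These ranges overlapped, and its log2 fold change of -0.13 ± 0.14 had an edgeR adjusted p of 0.73 and was -0.11 ± 0.13 without day 1 c. The share of Arf1 in the summed CPM of the 10 COPI genes was 15.7%, 16.0% and 29.0% in day 1 a, b and c and 13.1% to 14.9% at day 3, so day 1 c alone was far from the rest in that share.

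Among the cage subunits of the coatomer, Copb2 (chromosome 9, positions 98445774 to 98470435) had day ranges that did not overlap. Its normalised CPM was 152, 147 and 129 at day 1 and 105, 102, 76.7, 107 and 113 at day 3, so the day 1 values lay above all 5 day 3 values. Fitted over all libraries, the log2 fold change of Copb2 was -0.50 ± 0.17, with an unadjusted p of 0.0135 and an edgeR adjusted p of 0.169. It was -0.57 ± 0.18 without day 1 c, with an unadjusted p of 0.0116 and an edgeR adjusted p of 0.142. Copa, the largest cage subunit, ran from 104 to 204 at day 1 and from 81.2 to 119 at day 3, with day 1 c the highest. Copa shares 195 exon bases with Ncstn on the opposite strand, and counting without strand leaves it uncertain. Its fold change on the log2 scale was -0.51 ± 0.23 with all libraries and -0.19 ± 0.19 without day 1 c, with edgeR adjusted p of 0.328 and 0.678. Cope, the small subunit of the cage, had 433, 411 and 312 normalised CPM at day 1 and 362, 352, 383, 351 and 326 at day 3, with day 1 c the lowest of the 8. On the log2 scale its fold change was -0.12 ± 0.15 (edgeR adjusted p = 0.782), and -0.25 ± 0.13 without day 1 c, where its day ranges did not overlap.

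Of the subunits in the inner, cargo-binding layer of the coatomer, Copg1 and Copz1 had the lowest fold changes. Copg1 had 58.3, 72.8 and 98.2 normalised CPM at day 1 and 37.8, 34.5, 56.1, 47.0 and 58.2 at day 3. Ranges did not overlap, but day 1 a and day 3 e were almost equal. For Copg1 the log2 fold change was -0.71 ± 0.25 (edgeR adjusted p = 0.188) and -0.49 ± 0.25 without day 1 c. Its paralogue Copg2 ran from 27.5 to 39.6 at day 1 and from 10.7 to 50.6 at day 3, so the day 3 libraries enclosed all 3 of day 1, and its log2 fold change was -0.17 ± 0.49, or -0.29 ± 0.58 without day 1 c. Copz1, the small zeta subunit, had 103, 176 and 244 normalised CPM at day 1 and 65.2, 93.2, 115, 108 and 138 at day 3. Ranges overlapped, since day 1 a was below day 3 c, d and e. For Copz1 the log2 fold change was -0.75 ± 0.30 (edgeR adjusted p = 0.258), and -0.44 ± 0.29 without day 1 c. Copb1, the beta subunit, had 255, 227 and 181 normalised CPM at day 1 and 210.2, 216, 193, 194 and 211 at day 3, with day 1 c the lowest of all. A log2 fold change of -0.11 ± 0.15 had an edgeR adjusted p of 0.807, and was -0.23 ± 0.13 without day 1 c. Arcn1, the delta subunit, ran from 194 to 334 and from 158 to 241, with a log2 fold change of -0.23 ± 0.22, or -0.39 ± 0.21 without day 1 c.

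Summed over the 8 coatomer genes, where Copg1 and Copg2 are alternative gamma subunits, the normalised CPM was 1480.1, 1425 and 1389.7 at day 1. The day 3 sums were 1159.6, 1159 and 1162 in a to c, 1086 in d and 1222 in e. The days did not overlap in this sum, and day 1 c was not the highest of its day. Of single genes tested, 8.76% were lower without overlap, and no such share was computed for sums. Cope, Arcn1 and Copb1, the most abundant of these genes by CPM, each overlapped between the days over all libraries. The same sum per kilobase was 274, 277 and 261 RPKM (normalised CPM per kilobase of exon) at day 1 and 214 to 229.9 at day 3. Single subunits therefore differed in how far day 1 c departed from its group, while their sum varied little within each day.

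**Figure D2:**
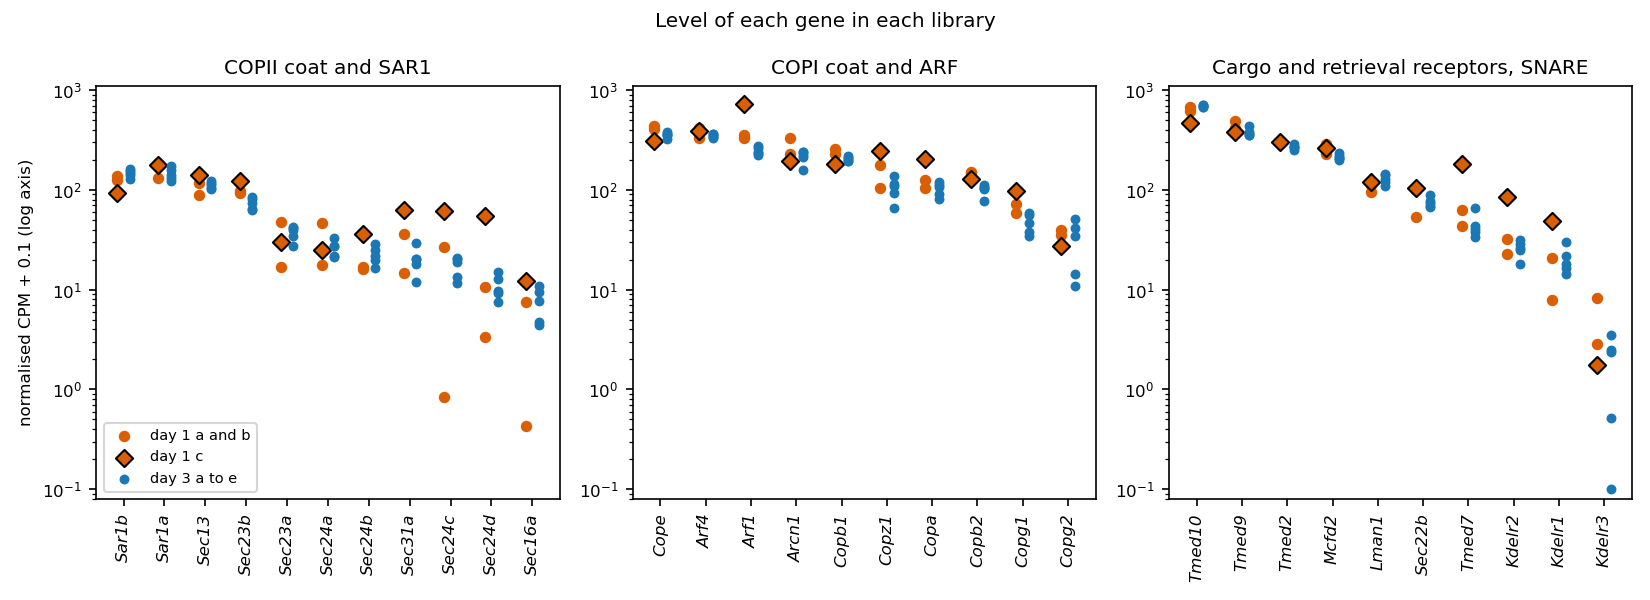
Normalised CPM plus 0.1 of each gene in each library (vertical log axis), in 3 panels by role and ordered by day 3 mean; orange circles are day 1 a and b, black-edged diamonds day 1 c and blue circles day 3 a to e. Arf1, Tmed7, Kdelr2 and Sec24d show day 1 c far above all other libraries (728, 181, 84.4 and 54.8), and Sec24c and Sec16a show day 1 a far below them (0.730 and 0.327).

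The COPII genes did not share one direction. Their median log2 fold change was -0.19, with 8 of 11 below 0 and a range from -1.09 to 0.29. Without day 1 c it was 0.15, with 4 below 0 and 7 above. Of the 11, 1 (Sec23b, 9.09%) was lower at an unadjusted p under 0.05, against 10.5% of all genes tested. None passed the adjusted test in edgeR, DESeq2 or voom.

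SEC23 activates the GTPase of SAR1 and forms the inner coat with SEC24. Sec23b (chromosome 2, positions 144398149 to 144432669) had 92.4, 97.4 and 123 normalised CPM at day 1 and 63.8, 80.8, 84.8, 73.2 and 63.3 at day 3. All 3 day 1 libraries lay above all 5 day 3 libraries. For Sec23b the log2 fold change was -0.51 ± 0.18 (unadjusted p = 0.0179, edgeR adjusted p = 0.192), and -0.38 ± 0.17 without day 1 c. Its paralogue Sec23a had 16.7, 47.4 and 30.1 at day 1 and 41.0, 27.2, 34.6, 39.1 and 42.3 at day 3, with day 1 a the lowest of the 8 and day 1 b the highest. Sec23a had a log2 fold change of 0.23 ± 0.33 with an edgeR adjusted p of 0.812. It was 0.19 ± 0.40 without day 1 c and turned to -0.09 without day 1 a. Per kilobase, Sec23b made up 81.0%, 61.2% and 75.8% of the summed SEC23 RPKM in day 1 a, b and c. The share at day 3 was 54.4%, 69.5%, 65.3%, 59.0% and 53.5% in a to e, so the ranges overlapped.

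The SEC24 paralogues select cargo by its sorting signals, and Sec24d and Sec24c had the highest SD relative to the mean within day 1 of all members. Sec24d (chromosome 3, positions 123061104 to 123159290) had 10.4, 3.27 and 54.8 normalised CPM at day 1 and 12.8, 9.13, 7.40, 9.48 and 15.0 at day 3. Day 1 c was above all others, and day 1 b was below all others. Over all libraries its log2 fold change was -1.09 ± 0.72 (edgeR adjusted p = 0.538) and turned to 0.66 ± 0.59 without day 1 c. Sec24c had 0.730, 26.5 and 61.4 at day 1 and 11.5, 19.0, 13.2, 20.1 and 20.5 at day 3. Its highest and its lowest values were both at day 1, in c and a, and the count in day 1 a was 29. For Sec24c the log2 fold change was -0.81 ± 0.87 (edgeR adjusted p = 0.732), and 0.29 ± 0.97 without day 1 c. Sec24b had 16.1, 17.0 and 36.0 at day 1 and 24.9, 16.3, 19.5, 28.7 and 21.8 at day 3, with a log2 fold change of -0.05 ± 0.35 that turned to 0.43 ± 0.32 without day 1 c. Sec24a ran from 17.7 to 45.9 at day 1 and from 21.1 to 32.5 at day 3, and was highest in day 1 a, with a log2 fold change of -0.19 ± 0.33. It was -0.28 ± 0.38 without day 1 c and turned to 0.26 without day 1 a. Of the summed SEC24 RPKM, Sec24a held 49.2% in day 1 a, 18.0% in b and 8.72% in c, and between 17.8% and 28.0% at day 3. The corresponding share of Sec24c was 1.33%, 45.8% and 36.5% at day 1 and 16.6% to 33.0% at day 3. Sec24d held 5.62% to 32.4% at day 1 and 12.5% to 21.1% at day 3, and Sec24b 22.4% to 30.6% and 29.6% to 39.6%. The shares of Sec24a, Sec24c and Sec24d thus ranged more widely among the 3 day 1 pools than among the 5 day 3 pools. That of Sec24b did not.

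The outer cage and the scaffold showed the same unevenness in part. Sec31a, a cage subunit, had 14.4, 35.8 and 63.5 normalised CPM at day 1 and 20.3, 20.3, 12.0, 29.1 and 18.0 at day 3. Day 1 a lay inside the day 3 range, whereas b and c lay above it. The log2 fold change was -0.93 ± 0.44 (edgeR adjusted p = 0.359), and -0.34 ± 0.44 without day 1 c. Its partner Sec13, which also belongs to the nuclear pore, ran from 88.9 to 139.6 at day 1 and from 102 to 124 at day 3, with a log2 fold change of -0.05 ± 0.18 that turned to 0.12 ± 0.17 without day 1 c. Sec16a, the scaffold of ER exit sites, had 0.327, 7.41 and 12.1 at day 1 and 9.40, 4.33, 4.60, 10.8 and 7.57 at day 3, and its count in day 1 a was 13. Its log2 fold change of 0.15 ± 0.89 had the widest error of the COPII genes (edgeR adjusted p = 0.96). It was 0.91 ± 1.06 without day 1 c and turned to -0.43 without day 1 a and -0.02 without day 3 d.

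The SAR1 GTPases start COPII assembly. Sar1b had 138, 126 and 93.8 normalised CPM at day 1 and 160.5, 155, 147, 142 and 127 at day 3, with day 1 c the lowest of the 8. Sar1b had a log2 fold change of 0.29 ± 0.17 with an edgeR adjusted p of 0.471, and 0.15 ± 0.16 without day 1 c. Sar1a had 131, 185 and 178 at day 1 and 122, 173, 139.9, 130.3 and 157 at day 3, with a log2 fold change of -0.19 ± 0.18 and an edgeR adjusted p of 0.695, and -0.14 ± 0.19 without day 1 c. Per kilobase, Sar1b exceeded Sar1a in every library, by ratios of 3.14, 2.04 and 1.57 at day 1 and of 2.42 to 3.93 at day 3. Sar1b and Sec24a are neighbours on chromosome 11, transcribed away from each other with 52 bases between them in GRCm39. Day 1 a was the highest day 1 library for both.

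**Figure D3:**
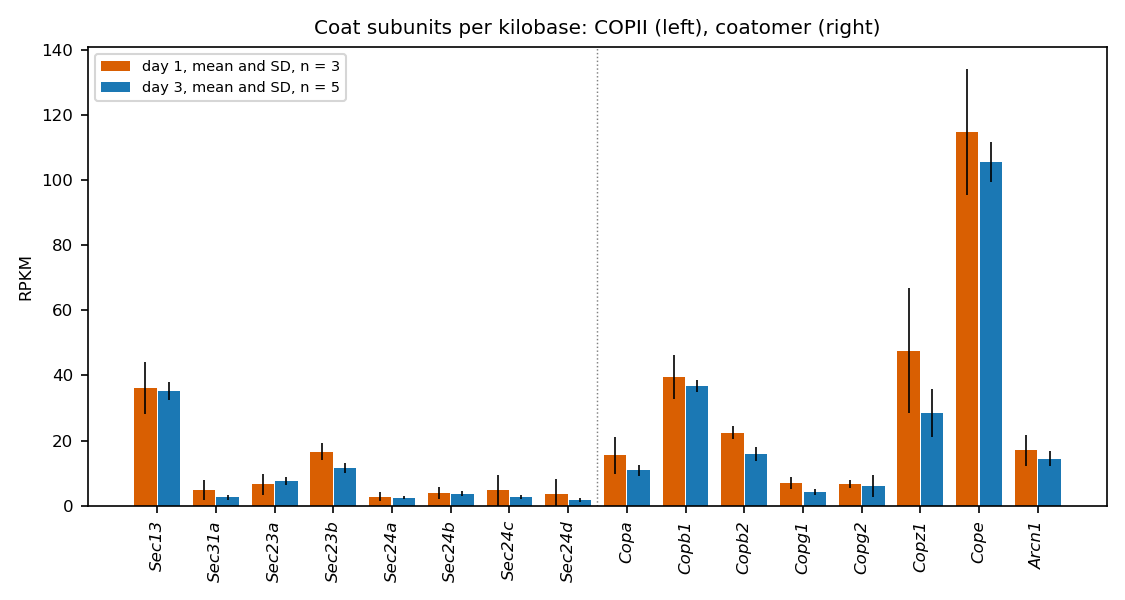
Mean RPKM of the 8 genes of the COPII coat (left of the dotted line) and the 8 coatomer genes (right), on a linear axis from 0; orange bars are day 1 (n = 3), blue bars day 3 (n = 5), and lines the SD. Cope is the highest coatomer gene and Sec13 the highest COPII gene on both days, and the SD of Sec24c and Sec24d at day 1 exceeds their mean.

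Per length of exon, the subunits of each coat were not equally abundant. Among the coatomer genes Cope led with 115 ± 19.3 RPKM at day 1 and 106 ± 6.19 at day 3 (SD, n = 3 and 5). Copz1 had 47.6 ± 19.3 and 28.4 ± 7.36, and Copb1 39.5 ± 6.65 and 36.7 ± 1.90, and these neighbours overlapped within their SD on both days. Copg1 was at the lower end, at 6.94 ± 1.83 and 4.24 ± 0.959, where it overlapped with Copg2 at 6.65 ± 1.20 and 5.92 ± 3.39. In the COPII coat, Sec13 had 36.3 ± 7.99 and 35.1 ± 2.73, Sec23b 16.5 ± 2.58 and 11.6 ± 1.55, and Sec31a 4.81 ± 3.12 and 2.53 ± 0.781. The 4 SEC24 genes lay between 1.70 and 4.70 in day means. The length is that of all annotated exons, so a gene with long rarely used exons, such as Arcn1 with 14915 exon bases, is understated.

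Set against each other, the coats differed by an amount that depended on single libraries. The COPII median fold change minus the COPI median was 0.18 on the log2 scale with all libraries, 0.48 without day 1 c and -0.076 without day 1 a. In each library the median deviation of log2(CPM + 1) from the mean of the day means was taken over the genes of a coat. For COPI it was 0.22, 0.13 and 0.11 in day 1 a, b and c, and -0.16, -0.19, -0.11, -0.20 and -0.021 in day 3 a to e. All day 1 values lay above all day 3 values. The same median over all genes tested was -0.030, 0.050 and 0.044 at day 1 and -0.074 to -0.026 at day 3. There day 1 a lay inside the day 3 range, and b and c lay above it. For COPII it was -0.22, 0.17 and 0.50 at day 1 and 0.12, -0.24, -0.12, 0.12 and 0.0099 at day 3. Day 1 values there enclosed all of those of day 3 except that of b. The difference, COPII minus COPI, was -0.44, 0.036 and 0.39 at day 1 and -0.054 to 0.32 at day 3, so the highest and the lowest differences were both at day 1.

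**Figure D4:**
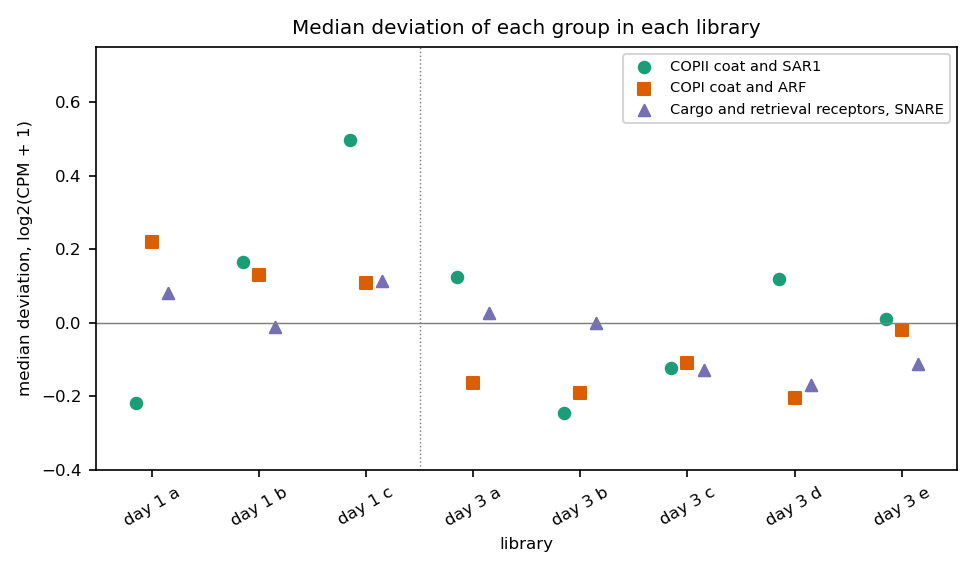
Median deviation of log2(CPM + 1) from the mean of the day means (vertical axis) in each of the 8 libraries, for COPII (circles), COPI (squares) and the cargo group (triangles). COPI lies between 0.11 and 0.22 in the day 1 libraries and below 0 in all 5 day 3 libraries, whereas COPII runs from -0.22 in day 1 a to 0.50 in day 1 c.

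The cargo receptors, retrieval receptors and SNARE had a median log2 fold change of -0.24, with 8 of 10 below 0 and a range from -1.30 to 0.24. Without day 1 c the median was -0.13, with 7 below 0 and 3 above. Of the 10, 1 (Tmed7, 10%) was lower at an unadjusted p under 0.05, against 10.5% of all genes tested.

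The p24 proteins form hetero-oligomers that sort GPI-anchored and other cargo. Tmed10, the most abundant member by count, had 681, 620.0 and 472 normalised CPM at day 1 and 700.4, 671, 716, 678 and 702 at day 3. Day 1 c was the lowest, and day 1 a lay inside the day 3 range. Tmed10 had a log2 fold change of 0.23 ± 0.15 with an edgeR adjusted p of 0.54, and 0.09 ± 0.12 without day 1 c. Tmed2 had 296, 311 and 301 at day 1 and 271, 290.2, 268, 251 and 268 at day 3, with less relative spread within day 1 than any other member. Its ranges did not overlap, and the log2 fold change was -0.17 ± 0.13 (edgeR adjusted p = 0.603), the same as without day 1 c (-0.17 ± 0.13). Tmed9 had 494, 413 and 378 at day 1 and 441, 356, 369.6, 357 and 384 at day 3, overlapping ranges with a log2 fold change of -0.17 ± 0.15, or -0.25 ± 0.16 without day 1 c. Tmed7 had 62.1, 42.9 and 181 at day 1 and 65.2, 33.5, 40.0, 43.2 and 37.5 at day 3. Day 1 c was far above the rest, and day 1 a and b lay inside the day 3 range. Tmed7 had a log2 fold change of -1.12 ± 0.43 with an edgeR adjusted p of 0.234, and -0.25 ± 0.31 without day 1 c. With no filter on low counts, its edgeR adjusted p was 0.0248 (background 2.95% lower), and over all 20 alternatives the adjusted p ran from there to 0.752. Tmed7 shares 838 exon bases with Ticam2 on the same strand, so its counts are uncertain.

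The KDEL receptors return ER chaperones that carry a C-terminal retrieval signal. Kdelr2 had 22.5, 31.9 and 84.4 normalised CPM at day 1 and 17.8, 25.8, 31.1, 25.2 and 28.8 at day 3. Day 1 c was the highest of the 8, and day 1 a lay inside the day 3 range. The log2 fold change was -0.85 ± 0.40 (edgeR adjusted p = 0.355), and -0.09 ± 0.29 without day 1 c. Kdelr1 ran from 7.77 to 49.0 at day 1, with the lowest value in b and the highest in c, and from 14.4 to 29.6 at day 3. For Kdelr1 the log2 fold change was -0.37 ± 0.51, and 0.49 ± 0.46 without day 1 c. Kdelr3 was the lowest member, at 8.11, 2.74 and 1.67 normalised CPM at day 1 and 3.42, 2.28, 0, 0.413 and 2.36 at day 3, where c had no count. It was the member that failed the stricter filter, and its log2 fold change of -1.30 ± 1.41 had an edgeR adjusted p of 0.735 and was -1.65 ± 1.59 without day 1 c. All 4 genes with the TGACGTGG element had fold changes below 0, as did 26 of all 31 members, and none passed the edgeR test. Without day 1 c the log2 fold change of Sec24d turned to 0.66. Within day 1 the 4 genes differed: Arf1 and Sec24d were highest in c, whereas Copb1 and Kdelr3 were lowest there.

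LMAN1 and MCFD2 form the receptor that carries certain glycoproteins, among them coagulation factors, out of the ER. Lman1 had 94.7, 111 and 119.8 normalised CPM at day 1 and 109, 129, 143, 142 and 118 at day 3, and these ranges overlapped. In CPM rescaled without day 1 c, its day 3 values lay above those of day 1. Its log2 fold change was 0.24 ± 0.16 (edgeR adjusted p = 0.542), and 0.31 ± 0.16 without day 1 c. Mcfd2 had 288, 229 and 261 at day 1 and 219.8, 232, 198, 209 and 210.3 at day 3, with a log2 fold change of -0.28 ± 0.14 and an edgeR adjusted p of 0.384, and -0.27 ± 0.14 without day 1 c. The fold changes of these partners thus had opposite signs, and neither passed the test. Sec22b, a SNARE of ER-Golgi vesicles, ran from 53.8 to 105 at day 1 and from 67.7 to 87.8 at day 3, with a log2 fold change of -0.21 ± 0.23, or -0.05 ± 0.26 without day 1 c.

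Without day 1 c, 2 members had an unadjusted p under 0.05, both lower at day 3 (Copb2 and Arf1), and 0 were higher, against 10.7% and 5.82% of the 16976 genes then tested. None passed the adjusted edgeR test, in which 1 gene did (0.00589%), while DESeq2 and limma voom each called Arf1 as lower (background 3.3% and 8.08% lower). In 8 members the day 3 CPM, rescaled without day 1 c, lay below day 1 without overlap (background 16.6%), 5 of them in COPI. In 1, Lman1, it lay above day 1 (background 8.46%). In the CPM printed above, which is scaled over all 8 libraries, Lman1 and Mcfd2 overlapped even with day 1 c left out. The fold changes of 5 members changed sign, 4 in COPII and 1 in the cargo group. The COPI median was -0.34, against -0.14 for all genes tested. After the stricter filter and without day 1 c, the medians were -0.31 for COPI, 0.18 for COPII and 0.02 for all genes.

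Day 1 c exceeded the mean of day 1 a and b by more than 1.5-fold in 11 of the 31 genes (35.5%), against 4670 of the 15371 genes tested (30.4%). The ratio was 7.99 for Sec24d, 4.51 for Sec24c, 3.44 for Tmed7, 3.42 for Kdelr1, 3.12 for Sec16a and 3.10 for Kdelr2. It was below 1 in 12 members, among them Sar1b (0.709), Arcn1 (0.687), Tmed10 (0.726), Cope (0.738) and Copb1 (0.752). Over 7990 genes of at least 5 CPM, the deviation of a gene in day 1 c correlated with the GC content of its transcript with a Spearman rho of 0.41, against -0.26 to 0.015 in the other libraries. Over the 31 members the rho in day 1 c was 0.52. Genes within 1 library share its depth and preparation, so these are descriptions with no test. Of the 11 genes above 1.5, 10 were among the 16 with a GC content at or above the median of the members, and 1, Kdelr2, was among the 15 below it. A fit with GC offsets per library, added after the data had been seen, left the ratio of Sec24d at 7.02 and that of Sec24c at 4.00. It gave medians of -0.23 for COPII and -0.40 for COPI, with -0.12 over all genes in that fit. In it 8 members were lower at an unadjusted p under 0.05 and 0 higher (background 10.3% and 5.57%), and 0 passed the adjusted edgeR test. The neutrophil markers were also highest in day 1 c, and the labels give it library number 10 where the others have 1 to 7. Their part in the levels of day 1 c was not tested.

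**Figure D5:**
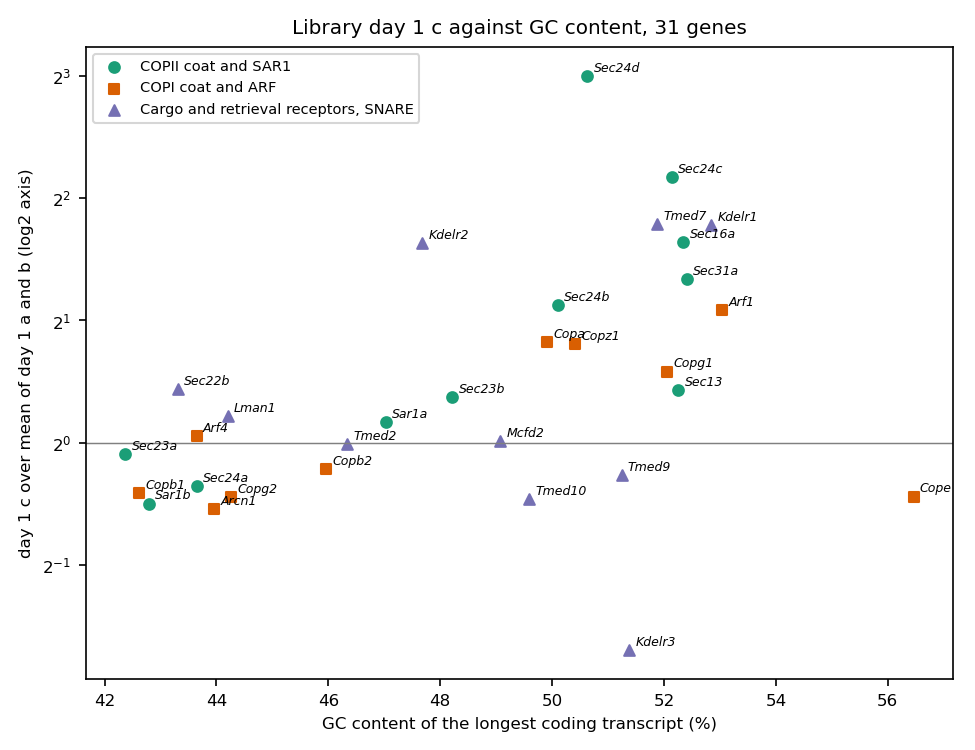
Ratio of day 1 c to the mean of day 1 a and b for each of the 31 genes (vertical log2 axis) against the GC content of the longest coding transcript in percent; circles are COPII, squares COPI and triangles the cargo group. The genes with the highest ratios, Sec24d (7.99) and Sec24c (4.51), lie above the member median in GC content, and Cope, with the highest GC content (56.5%), has a ratio of 0.738.

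Genes next to the coats in the pathway were counted in lists. Of 71 tested further ER-Golgi genes (tethers, TRAPP subunits, RAB1 and other sorting receptors), none passed the adjusted edgeR test. DESeq2 called 5 and limma voom 1, all lower (background 4.22% and 4.4% lower). At an unadjusted p under 0.05 in edgeR, 15 were lower and 2 higher at day 3, where 10.5% and 5.16% of all genes tested were. The median log2 fold change was -0.37, and -0.04 without day 1 c. Rab1a, the GTPase that tethers ER-derived vesicles, averaged 702 ± 64.3 at day 1 and 526 ± 34.8 at day 3 in normalised CPM, which gave -0.42 ± 0.14 on the log2 scale with an edgeR adjusted p of 0.163 (-0.45 ± 0.14 without day 1 c). Lman2, a lectin related to Lman1, averaged 462 ± 54.5 at day 1 and 418 ± 36.6 at day 3, or -0.14 ± 0.15 on the log2 scale (-0.24 ± 0.14 without day 1 c).

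Of 54 tested genes of ER translocation, chaperones and the unfolded protein response, 19 were lower and 1 higher at an unadjusted p under 0.05 in edgeR (background 10.5% and 5.16%). None passed the adjusted edgeR test over all 15371 genes, while DESeq2 called 12 and limma voom 7, all lower (background 4.22% and 4.4% lower). The median log2 fold change was -0.27, and -0.18 without day 1 c. After the stricter filter 6 of 51 fell at an adjusted p under 0.05 by edgeR (Dnajb11, Sec61a1, Calr, Pdia6, Syvn1 and Sdf2l1), where 1.02% of all genes did. The count was 2 without day 1 c (Calr and Dnajb11), 3 without day 3 b, 6 without day 1 a, and 0 without day 3 a, c, d or e. It was 9 without day 1 b, where the background was 2.74% lower. The share of all genes is not given here for the other fits with a library left out. Dnajb11, a co-chaperone of BiP, had 301 ± 72.3 at day 1 and 153 ± 8.90 at day 3 normalised CPM, and fell, at -0.95 ± 0.18 on the log2 scale after the stricter filter (edgeR adjusted p = 0.0308). Calr, the lectin chaperone calreticulin, had 734 ± 420.1 at day 1 and 252 ± 25.4 at day 3, with a log2 fold change of -1.51 ± 0.29 after that filter (edgeR adjusted p = 0.0315), while its log2 fold change was -0.93 without day 1 c. Sec61a1, the channel of the ER translocon, had 135 ± 102 at day 1 and 25.6 ± 10.8 at day 3, with -2.37 ± 0.45 on that scale (edgeR adjusted p = 0.0308), but had an adjusted p of 0.0643 without day 1 c. Hspa5, which encodes BiP, averaged 3443 ± 785 at day 1 and 2261 ± 329 at day 3, or -0.61 ± 0.19 on the log2 scale with an edgeR adjusted p of 0.152 (-0.46 ± 0.17 without day 1 c). Pdia3 had 2119 ± 461 at day 1 and 1201 ± 133 at day 3, and the transcription factor gene Xbp1 had 472 ± 159.9 at day 1 and 290.0 ± 23.6 at day 3, with log2 fold changes of -0.82 ± 0.18 and -0.70 ± 0.20 that did not pass the adjusted edgeR test. Without day 1 c these were -0.82 ± 0.18 and -0.39 ± 0.13.

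The clathrin and adaptor coats, which act beyond the Golgi, had 8 of 25 tested genes lower and 0 higher at an unadjusted p under 0.05 (background 10.5% and 5.16%). By the adjusted tests edgeR called 0, DESeq2 3 and limma voom 2, all lower (background 4.22% lower in DESeq2 and 4.4% in limma voom). Their median was -0.40, and -0.27 without day 1 c. Ap2m1, the adaptor subunit that binds tyrosine-based signals, had 679 ± 132 at day 1 and 420.1 ± 53.8 at day 3 and a log2 fold change of -0.69 ± 0.18 with an edgeR adjusted p of 0.0854 (-0.62 ± 0.19 without day 1 c). Cltc, the clathrin heavy chain gene, had 378 ± 32.8 at day 1 and 369 ± 46.0 at day 3 and a log2 fold change of -0.04 ± 0.16 (-0.11 ± 0.16 without day 1 c). For retromer, GGA and COG genes, which serve recycling and retrieval to the Golgi, 8 of 19 were lower and 0 higher at an unadjusted p under 0.05 (background 10.5% and 5.16%). The adjusted tests called 0 in edgeR, 5 in DESeq2 and 2 in limma voom, all lower (background 4.22% lower in DESeq2 and 4.4% in limma voom). The median was -0.49, or -0.52 without day 1 c. The most abundant, Snx2 and Snx5, had log2 fold changes of -0.17 ± 0.21 and 0.21 ± 0.18. COPI was thus not the only coat with a median below that of all genes. Of the 7 CREB3 family and site protease genes, 1 was lower and 2 were higher at an unadjusted p under 0.05 in edgeR (background 10.5% and 5.16%). The lower gene was Mbtps1, a site protease, with 13.7 ± 6.83 normalised CPM at day 1 and 5.74 ± 2.16 at day 3. Adjusted, edgeR and limma voom called 0, and DESeq2 called 2 as higher (background 2.43% higher). The 2 higher genes were Creb3l3 and Creb3l4 in both counts, and these 3 genes were named after their values were seen. Creb3l3 had 0, 0.467 and 0.801 normalised CPM at day 1 and 2.94 to 5.34 at day 3, without overlap. Creb3l4 had 0.101, 0 and 0 at day 1 and 8.09, 3.94, 1.95, 0 and 0.152 at day 3, so these were near the limit of detection in part of the libraries. The list's median was 0.09, or 0.07 without day 1 c. Creb3 had 114 ± 28.6 at day 1 and 122 ± 16.6 at day 3 normalised CPM and a log2 fold change of 0.09 ± 0.20. Creb3l1 and Creb3l2 were low, the first at 10.2 ± 3.08 at day 1 and 8.81 ± 4.20 at day 3 and the other at 5.69 ± 5.20 at day 1 and 3.47 ± 3.14 at day 3.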

How the data were processed

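RNA was sequenced from 8 pools of F4/80-selected cells of wounded mouse skin, 3 at day 1 and 5 at day 3, and groups and letters were taken from the sample titles. The values the authors deposited are raw counts, 1 column per library, made with featureCounts 1.6.0 on release 106 of the GRCm39 annotation per the file headers. The exon length in the deposited table is the union of exon bases, per the file headers. Trimmomatic and DESeq2 are named without versions in the submitters' processing notes, and no source used here names the aligner. The recorded command sets no option for strand or read pairs. Among members, Copg2 and Arf4 shared the most exon bases with other genes (17.8% and 17.7%), all on the opposite strand. Copa, Tmed7, Sec23a and Copg1 shared 8.5% to 9.6%, and Sec24c 3.4%. Counting without strand leaves the counts of all these members uncertain in part. Of counts from 2 to 20, 73.0% were even in day 1 c and 81.3% to 86.0% in the other libraries. Read pairs were therefore probably counted as separate reads, and fragments are overstated. Column letters match the titles but partly differ from those of the alignments named in the command, and letters served as names only. All columns belonged to these 8 samples.

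Symbols were matched for 52081 of 55414 genes (94.0%). Genes were kept with filterByExpr (minimum count 10), scaled by TMM and tested with the two-sided edgeR quasi-likelihood test, with Benjamini-Hochberg adjustment over all 15371 genes and a threshold of 0.05. The stricter filter kept genes averaging 5 CPM or more that reached 1 CPM in all libraries of either day. RPKM was computed from normalised CPM and the deposited length. The fits were checked on simulated data. Standard errors are the fold change divided by the square root of F. Fits ran in R 4.3.3 with edgeR 4.0.16, DESeq2 1.42.0 and limma 3.58.1. Summaries and plots used Python 3.11.15 with pandas 2.3.3, numpy 2.4.6, matplotlib 3.10.9 and scipy 1.17.1.

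The members and lists were chosen with earlier results of these data known, so no test was made over them. All members were named. Values in every library were given by rule for called members, for the 3 highest and 3 lowest fold changes of each group and for diverging paralogues, and for further members chosen after their values were seen. From each further list the 2 most abundant genes and up to 3 called ones were named, with Hspa5, Xbp1, Sec61a1, Creb3 and Creb3l2 in any case. Alternatives were DESeq2, limma voom, RLE factors, library totals alone, no filter and the stricter filter, each library left out, only the libraries lettered a to c, either blocked by letter or not, and summaries without the GTPases or by means. The fits with GC offsets (20 GC bins per library), the other tools without day 1 c, the stricter filter with each library left out, and the summary without both the GTPases and day 1 c were chosen after seeing the data. Promoter windows came from RefSeq on GRCm38.p6, and 5 members had no window there. GC content was that of the longest coding transcript of each gene in the GENCODE annotation of GRCm38.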

Additional observations from a re-analysis of the deposited data

How the results depend on the processing

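Under the alternatives, the median log2 fold changes of COPI and of the cargo group stayed below 0, and that of COPII did not. The number of all genes called, 2 by edgeR, was 1021 with DESeq2, 825 with limma voom, 1347 with no filter on low counts, 146 with the stricter filter, and 0 to 59 with each library left out in turn (59 without day 1 b, 31 without day 3 b, 1 without day 1 c and 0 without any other). The number of members called was 0, but 1 with DESeq2, 2 with no filter, 1 with DESeq2 or limma voom without day 1 c, and 0 to 1 with the stricter filter and each library left out. The COPI median was -0.44 with limma voom and -0.45 to -0.28 with each library left out, lowest without day 3 a and highest without day 1 a. The COPII median ran from -0.36 without day 1 a to 0.15 without day 1 c, the cargo median from -0.30 to -0.13, and COPII minus COPI from -0.076 without day 1 a to 0.48 without day 1 c. That difference was 0.53 without the GTPases and without day 1 c. With GC offsets 113 genes were called, and 52 when day 1 c was left out as well, where the COPII median was 0.16 and the difference 0.52. The cause of these shifts was not tested. Of the 31 members, 19 kept one sign in all 20 alternatives, Kdelr3 did so in the 19 it could be fitted in, and 11 turned in at least 1. Arf1 and Tmed7 were the 2 members called in any of them.

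Same-letter correlations of the deviations from the day means were 0.07, 0.0078 and 0.057 for a to c. Those between different letters ran from -0.11 to 0.055. With 3 libraries per day centred on their own mean, these values cannot decide whether the letters pair the libraries. With the letter as a replicate block, 0 genes and 0 members were called, and the cargo median was -0.12. The same 6 libraries with no replicate block also gave 0 and 0. Depth limits the low members most, since Sec16a and Sec24c had counts of 13 and 29 in day 1 a and Kdelr3 a count of 0 in day 3 c.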
